A study of Homo sapiens with 30 samples.

Results

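Aminoacyl-tRNA synthetases join each amino acid to its own tRNA before the ribosome can use it. The 36 genes described here encode 20 cytosolic enzymes and 16 mitochondrial enzymes whose symbols end in 2. They were taken by symbol from a fixed list, by Ensembl identifier in the knockout table, and all 36 had a row in each of the 3 count tables (36 of 60612 rows in the knockout table and 36 of 56303 in the other tables). All 36 passed the low-count filter in each of the 9 comparisons.

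Cytosolic synthetases charge tRNA for protein synthesis outside the mitochondrion, and the mitochondrial set, also encoded in the nucleus, is imported to serve the mitochondrial ribosome. The enzymes fall into class I and class II by the fold of their catalytic domain, and the products of DARS, EPRS, IARS, KARS, LARS, MARS, QARS and RARS sit together in the multi-tRNA synthetase complex, held by the scaffold proteins AIMP1, AIMP2 and EEF1E1. EPRS carries both a glutamyl and a prolyl enzyme, FARSA and FARSB are the subunits of one phenylalanyl enzyme, and GARS and KARS each also give rise to the mitochondrial form of their enzyme. Many cytosolic synthetase genes are known targets of ATF4, the transcription factor of the amino acid response, and growth programmes driven by MYC raise the translation machinery more broadly.

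The libraries were poly(A)-selected RNA-seq of 5637 cells, a human bladder carcinoma line, in 10 groups of 3. The knockout experiment held the control groups WT1 and WT2 and the RBPMS knockout groups KO1 and KO2. According to the study's own discussion the knockout populations were expanded from single clones, so each knockout group stands for a single clone. The study used 2 guide RNAs against RBPMS, and its discussion names possible off-target effects of the guides beside variation from clonal expansion. Guide and clone thus cannot be told apart between KO1 and KO2. The overexpression experiment held an empty Vector group and groups overexpressing the ANKRD10-1 or ANKRD10-2 splice isoform, and the knockdown experiment held a non-targeting siNC group and groups given an siRNA against either isoform, siANKRD10-1 or siANKRD10-2. The labels name only 5637 cells for the last 2 experiments, whereas the study text places ANKRD10-1 overexpression and ANKRD10-2 knockdown in RBPMS-knockout cells. RBPMS stood at 4.50 to 5.40 CPM (counts scaled to the library total) on average in the 3 overexpression groups and at 4.65 to 5.12 CPM in the 3 knockdown groups, and it was not called in any comparison of these experiments. Nothing states whether the 3 libraries of a group came from separate cultures, so p-values measure the spread between these libraries, which may be technical.

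Total counts per library ran from 44593108 to 69723937 in the knockout table, from 31736779 to 47493499 in the overexpression table and from 28511029 to 32784584 in the knockdown table. RBPMS fell from 40.4 ± 1.66 CPM (SD, n = 3) in WT1 to 14.9 ± 0.505 in KO1 and from 43.1 ± 0.937 in WT2 to 20.3 ± 1.23 in KO2. Counts summed over ANKRD10, which do not separate its isoforms, rose in ANKRD10-1 OE (log2 fold change 0.67, SE 0.04) and in ANKRD10-2 OE (0.41, SE 0.05), and fell by 0.24 (SE 0.06) and 0.25 (SE 0.06) on the log2 scale with the siRNAs. They fell further in the knockouts, from a mean of 195 CPM in WT1 to 86.3 in KO1 (by 1.18, SE 0.05) and from 190 CPM in WT2 to 113 in KO2 (by 0.76, SE 0.04). The 9 epithelial marker genes summed to 2894 to 5742 CPM per library over all groups, and the 8 markers of other cell types to 34.3 to 68.5 CPM. Most of the latter was COL1A1, a collagen gene of fibroblasts (49.9 CPM in WT1), whereas CD3E, PTPRC and ALB, markers of T cells, leukocytes and hepatocytes, stayed at or below a group mean of 0.228 CPM.

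Promoters of the members were searched for the letters bound by ATF4 and by MYC. RefSeq promoters (GRCh38.p14, 250 bases before to 50 after the start site) were matched for 30 of 36 members, using only the first promoter listed for a gene. DARS, LARS, VARS, YARS, AARS2 and VARS2 had no match. The letters TGATGNAA, the core of the element bound by ATF4 with C/EBP partners, were searched on both strands and occurred in 3.67% of 27305 promoters, in 6 of 16 cytosolic members (37.5%) and in 1 of 14 mitochondrial members, YARS2 (7.14%). The E-box CACGTG, a palindrome bound by MYC with MAX, occurred in 7.43% of promoters, in IARS as the 1 of 16 cytosolic members and in MARS2, CARS2 and EARS2 of 14 mitochondrial ones. A match describes letters and is not evidence of binding. The windows of the 6 cytosolic members with TGATGNAA or its complement, in capitals, are shown 5′ to 3′ on each gene's own strand because MARS, the member with the largest difference in the overexpression experiment, is among them; GARS and FARSB, which also rose there, do not hold the letters in this window.
MARS, chr12:57488053-57488082, + strand: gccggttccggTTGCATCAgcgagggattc
TARS, chr5:33440956-33440985, + strand: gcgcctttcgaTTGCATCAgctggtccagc
CARS, chr11:3057407-3057436, − strand: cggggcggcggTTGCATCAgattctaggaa
IARS, chr9:92293692-92293721, − strand: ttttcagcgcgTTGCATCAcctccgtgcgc
AARS, chr16:70289675-70289704, − strand: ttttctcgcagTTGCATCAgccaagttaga
NARS, chr18:57621804-57621833, − strand: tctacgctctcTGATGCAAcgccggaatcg
The first 5 windows hold the same letters, TTGCATCA, the complement of TGATGCAA read backwards, and in NARS the motif reads along the gene. The match began 4 bases before the start site in MARS, 2 before it in CARS, 13 before it in IARS and 187 before it in AARS, and lay just past the start site in TARS and NARS. These distances hold for the start site of the promoter used, which in these genes is not the end of the annotated gene span.

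Cytosolic enzymes were the more abundant set. On the per-length scale (TPM), counts were divided by the summed exon length of the gene and scaled to the library. That length takes in all annotated exons, 10037 bases for CARS and 3421 for RARS. The order between genes thus rests partly on the annotation. The Vector median was 40.4 TPM over 20 cytosolic members and 6.98 TPM over 16 mitochondrial members, and in siNC it was 39.8 and 9.52 TPM. SARS, the seryl enzyme, was highest in both control groups, at 414, 441 and 422 TPM in the Vector libraries and 220, 223 and 203 TPM in siNC. NARS (mean 170 TPM), DARS (143), EPRS (101) and AARS (99.4) followed in Vector, and IARS2, the mitochondrial isoleucyl enzyme, came next at 86 TPM, above 15 of the cytosolic members. PARS2 and MARS2 closed the order in both groups, at 1.35 and 1.36 TPM in Vector and at 1.13 and 1.04 TPM in siNC. Neighbours in this order often did not separate: 15 of 35 neighbouring pairs had overlapping library values in Vector and 19 of 35 in siNC. The knockout table holds no gene lengths, so levels there were compared between groups and not between genes.

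**Figure D1:**
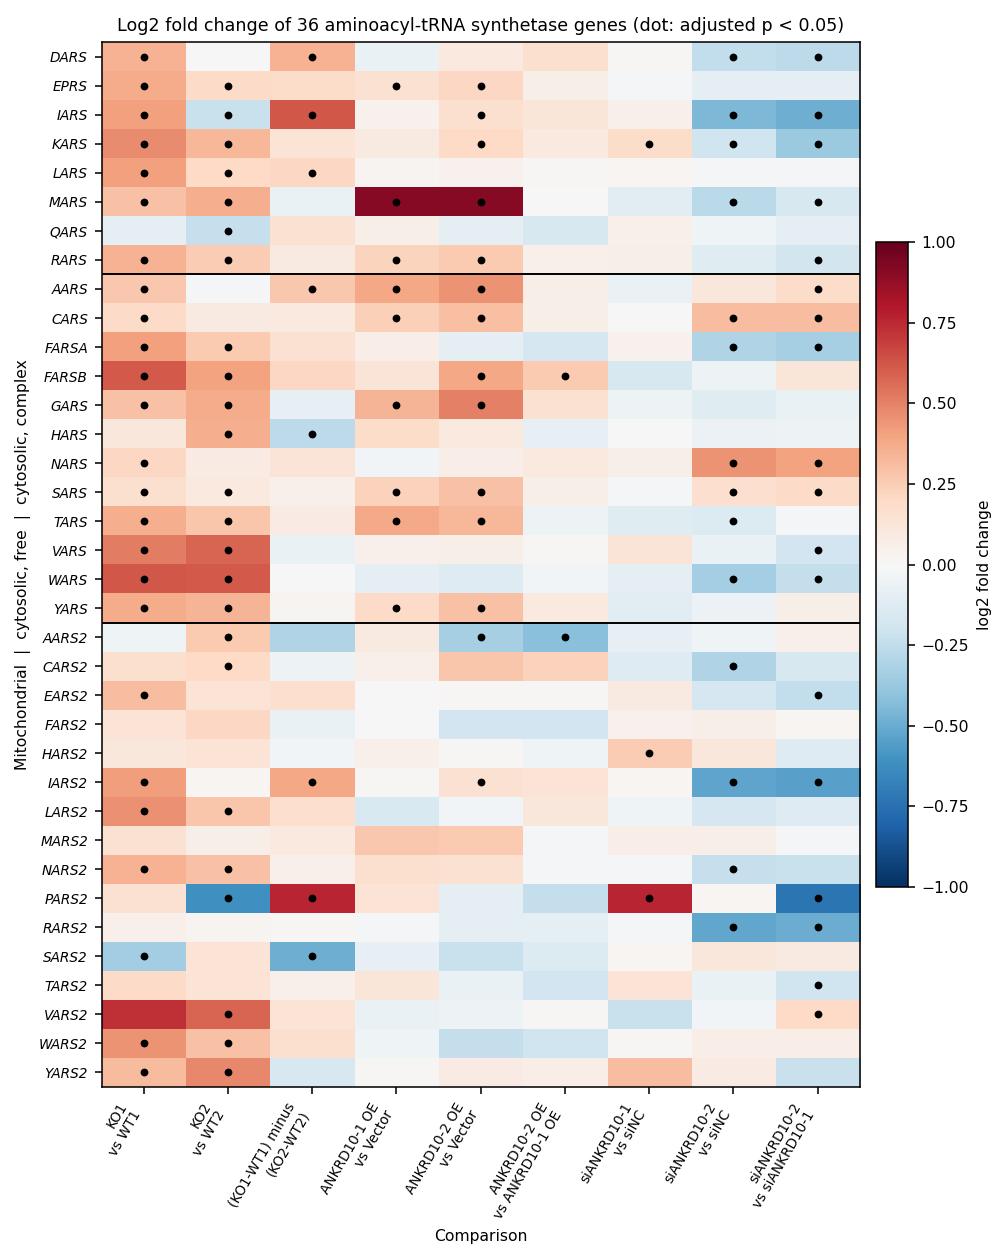
Log2 fold change (colour, from -1 in blue to 1 in red) of each of the 36 members in rows against the 9 comparisons in columns. Black dots mark adjusted p under 0.05, and horizontal lines part the 8 complex members, the 12 other cytosolic members and the 16 mitochondrial members. The cytosolic rows are mostly red in the knockout columns, MARS is the darkest row in both overexpression columns at 0.91, and red and blue are mixed in the siANKRD10-2 columns.

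Loss of RBPMS in KO1 went with higher RNA of most cytosolic synthetases. Of 20 cytosolic members 18 rose and 0 fell by edgeR or DESeq2 (0 also at an unadjusted p under 0.05), with a median log2 fold change of 0.35, while 6 of 16 mitochondrial members rose and 1 fell, with a median of 0.17. Over all genes tested 17.9% rose and 18.2% fell in this comparison (29.1% and 21.2% among genes with a mean of at least 20 CPM), and their median was 0. The summed level of the cytosolic members was 2432, 2465 and 2500 CPM in the WT1 libraries and 3018, 3166 and 3150 CPM in KO1.

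WARS, the tryptophanyl enzyme, led KO1: its libraries gave 107, 104 and 110 CPM in WT1 and 163, 163 and 168 CPM in KO1, without overlap (1.54-fold, log2 fold change 0.62, SE 0.05, adjusted p = 3.01e-06). FARSB, the beta subunit of the phenylalanyl enzyme, gave 55.3, 49.4 and 52.9 CPM in WT1 and 73.3, 84.8 and 83.2 in KO1 (log2 fold change 0.61, SE 0.07). VARS, the valyl enzyme, went from 83.1, 80.7 and 76.1 CPM to 119, 106 and 116 (0.51, SE 0.06). Each of these genes was higher in every KO1 library than in any WT1 library. KARS, the lysyl enzyme, moved from a mean of 147 to 205 CPM (0.47, SE 0.05) and LARS, the leucyl enzyme, from 107 to 143 CPM (0.41, SE 0.05). The remaining 13 cytosolic members called higher ranged from 0.16 for SARS to 0.41 for IARS and FARSA. HARS at 0.11 (adjusted p = 0.203) and QARS at -0.09 (adjusted p = 0.208) were not called. By structure, 7 of 8 complex members and 11 of 12 free enzymes were higher, as were 8 of 9 class I and 9 of 10 class II enzymes.

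Among the mitochondrial enzymes in KO1, LARS2 rose from 35.6, 33.5 and 34.1 CPM to 46.6, 50.4 and 44.9 (log2 fold change 0.46, SE 0.06, adjusted p = 0.000267). WARS2 rose from a mean of 19.8 to 27.1 CPM (0.45, SE 0.09) and IARS2 from 206 to 276 CPM (0.42, SE 0.05). SARS2, the mitochondrial seryl enzyme, fell by 0.35 on the log2 scale (SE 0.09, adjusted p = 0.0124), from 25.7, 22.6 and 21.1 CPM to 17.3, 17.9 and 19.4. The SARS2 call was lost without WT1 replicate 1 (or without KO1 replicate 1), and much of its chromosome was lower as well: the median over 1196 genes of chromosome 19 was -0.38 in KO1, and over the 226 genes within 5 Mb of SARS2 it was -0.51. FARSA lies elsewhere on the same chromosome, where the median over the 249 genes within 5 Mb was -0.06, and stood at 0.41. VARS2 gave 4.03, 14.7 and 3.54 CPM in WT1 and 9.27, 15 and 12.7 in KO1, and this spread left its difference of 0.73 (SE 0.44) uncalled. SARS2 and VARS2 each overlap another gene on the same strand, so reads may be split or dropped there.

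**Figure D2:**
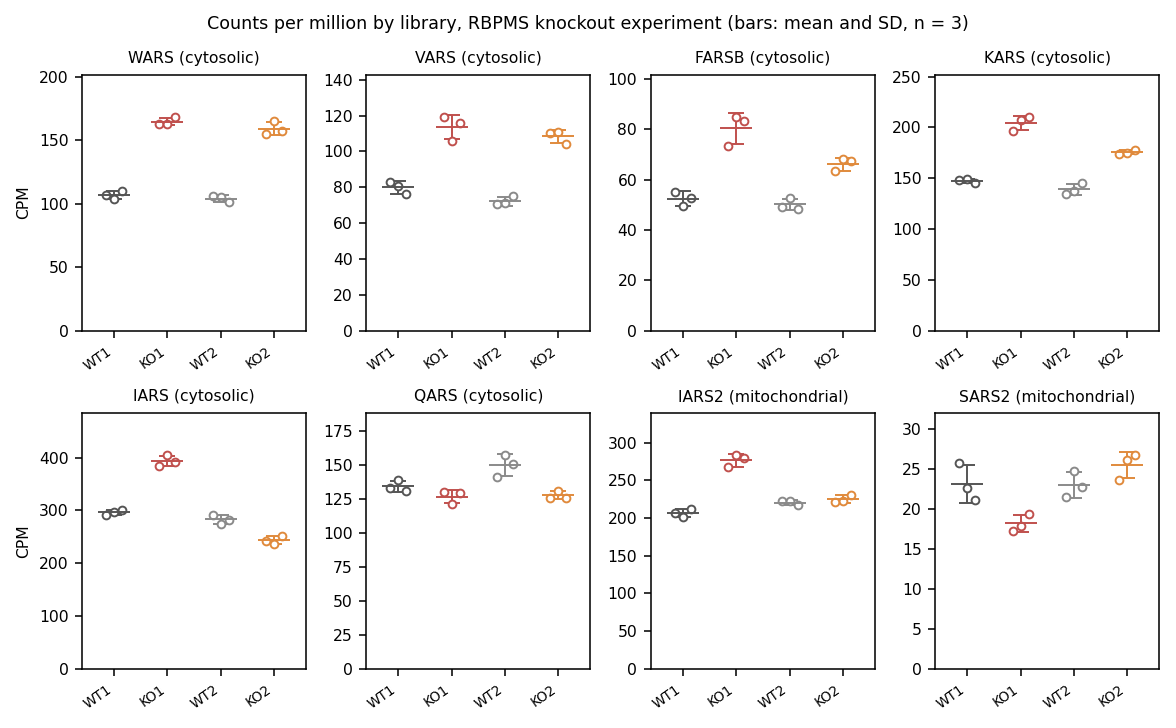
CPM (linear axis from 0) of 8 members in the 12 libraries of the knockout experiment; circles are libraries, horizontal bars the mean and error bars the SD of 3. WARS, VARS, FARSB and KARS are higher in both KO groups than in their WT groups, IARS is higher in KO1 and lower in KO2, and SARS2 is lower in KO1 than in WT1.

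KO2 showed the same direction for most of the cytosolic set. Of 20 cytosolic members 14 rose and 2 fell (median 0.26), and of 16 mitochondrial members 7 rose and 1 fell (median 0.17), against 19.3% higher and 19.2% lower over all genes tested and 32.3% and 22.6% among genes with at least 20 CPM. WARS gave 106, 105 and 101 CPM in WT2 and 155, 165 and 157 in KO2, again without overlap (1.53-fold, log2 fold change 0.61, SE 0.04, adjusted p = 2.83e-07). VARS moved from 70.5, 71.1 and 75.2 CPM to 110, 111 and 104 (0.58, SE 0.05) and FARSB from a mean of 50.2 to 66.2 CPM (0.40, SE 0.05). GARS, the glycyl enzyme, was at 110 CPM in WT2 and 143 in KO2 (0.37, SE 0.04), and HARS, the histidyl enzyme, at 55.1 and 70.9 CPM (0.36, SE 0.05). The 9 other cytosolic members called higher ranged from 0.10 for SARS to 0.36 for MARS. HARS and HARS2 overlap head to head by 437 bases, and without knowing whether counting used the strand their reads cannot be told apart there.

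In KO2 3 members fell: QARS and IARS, both of the complex, and the mitochondrial PARS2. QARS, the glutaminyl enzyme, fell by 0.23 on the log2 scale (SE 0.04, adjusted p = 0.00133), from 141, 157 and 151 CPM to 126, 131 and 126. IARS, the isoleucyl enzyme, fell by 0.22 (SE 0.04), from 291, 275 and 282 CPM to 242, 237 and 252. IARS lies on chromosome 9, where the median over 723 genes was -0.41 in KO2 (-0.47 over the 62 genes within 5 Mb), and the difference of IARS was smaller than either median. Among the mitochondrial enzymes YARS2 rose from 17.5, 14.5 and 16.4 CPM to 23.1, 21.9 and 22.6 (0.48, SE 0.08), and WARS2 from a mean of 19.5 to 23.9 CPM (0.29, SE 0.08). VARS2 passed at 0.58 (SE 0.21, adjusted p = 0.0433) with overlapping libraries and lost its call in 8 of 12 alternatives. PARS2, the mitochondrial prolyl enzyme, fell by 0.61 (SE 0.14), from 8.69, 7.97 and 6.96 CPM to 5.38, 5.72 and 4.48.

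Both groups were higher than their controls at 13 cytosolic members (EPRS, FARSA, FARSB, GARS, KARS, LARS, MARS, RARS, SARS, TARS, VARS, WARS and YARS), which is 13 of 18 in KO1 and 13 of 14 in KO2, together with LARS2, NARS2, WARS2 and YARS2, which is 4 of 6 and 4 of 7. Over all genes with at least 20 CPM, 59% of those higher in KO1 were also higher in KO2 and 52.5% the other way round. With 18 and 14 of 20 cytosolic members called higher, most had to be shared. The test of the difference between the knockout groups, each against its own control, was called for 8 of 36 members (4 cytosolic higher in KO1 and 1 lower, 2 mitochondrial higher and 1 lower), which is near the 23.3% of all genes tested (11.2% higher and 12.1% lower). IARS differed most among the cytosolic members, by 0.62 (SE 0.05, adjusted p = 3.75e-07), with chromosome 9 as a whole at 0.42. IARS2 differed by 0.39 (SE 0.05): its libraries gave 222, 222 and 217 CPM in WT2 and 221, 223 and 231 in KO2. WARS differed by 0.00 (SE 0.06) and VARS by -0.07 (SE 0.07) between the knockout groups.

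Overexpression of either ANKRD10 isoform went with higher RNA of a smaller, shared group of cytosolic synthetases. In ANKRD10-1 OE 9 of 20 cytosolic members rose and 0 fell by edgeR or DESeq2 (1 lower at an unadjusted p under 0.05; median 0.14), and 0 of 16 mitochondrial members were called by either tool or reached an unadjusted p under 0.05 (median 0.01). The background was 3.5% higher and 2.81% lower over all genes tested, and 8.39% and 5.35% among genes with at least 20 CPM. In ANKRD10-2 OE 12 cytosolic members rose and 0 fell by edgeR or DESeq2 (1 lower at an unadjusted p under 0.05; median 0.20), and 1 mitochondrial member rose and 1 fell (median -0.04), against 10.7% and 9.25% over all genes and 22.7% and 12.1% among the abundant ones. Both comparisons use the same Vector libraries, so their calls are not independent.

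MARS, the methionyl enzyme of the complex, had the largest difference of the 36 members in both groups. It gave 59.0, 52.6 and 54.8 CPM in Vector, 108, 108 and 97.7 CPM in ANKRD10-1 OE and 108, 100 and 104 CPM in ANKRD10-2 OE. Both overexpressing groups were 1.88-fold above Vector (log2 fold change 0.91, SE 0.06 in each, adjusted p = 3.41e-09 and 7.66e-08), and no library overlapped between them and Vector. The 3′ end of MARS (chromosome 12, 57475445 to 57517569, + strand) overlaps DDIT3, a stress-induced transcription factor gene on the opposite strand, by 982 bases. DDIT3 itself gave 61.7, 53.5 and 59.1 CPM in Vector and rose 2.60-fold in ANKRD10-1 OE and 2.50-fold in ANKRD10-2 OE (log2 fold change 1.38 and 1.32, SE 0.06 in each). Whether reads of the overlap with DDIT3 were counted for either gene is not stated, and their part in the MARS value was not tested. At its 5′ end the annotated span of MARS also overlaps ARHGAP9, a gene on the opposite strand, by 13370 bases. The promoter window of MARS shown above lies inside that overlap, so its start site differs from the gene start given here. The part of ARHGAP9 reads was not tested either.

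GARS gave 115, 121 and 112 CPM in Vector, 151, 142 and 148 in ANKRD10-1 OE and 169, 160 and 161 in ANKRD10-2 OE (log2 fold change 0.34 and 0.50, SE 0.05 in each). AARS, the alanyl enzyme, gave 175, 161 and 174 CPM in Vector, 228, 218 and 223 in ANKRD10-1 OE and 240, 231 and 228 in ANKRD10-2 OE (0.39 and 0.45). TARS, the threonyl enzyme, rose from a mean of 143 CPM to 186 and 179 CPM (0.38 and 0.33), and CARS, the cysteinyl enzyme, from 153 CPM to 180 CPM in ANKRD10-1 OE (0.24, SE 0.05). All of these libraries lay above every Vector library. RARS, SARS, YARS and EPRS made up the 9, at 0.15 to 0.23 in ANKRD10-1 OE and 0.21 to 0.29 in ANKRD10-2 OE. FARSB (23.1 CPM in Vector, 25.3 in ANKRD10-1 OE and 30.2 in ANKRD10-2 OE), KARS and IARS joined them in ANKRD10-2 OE at 0.39, 0.20 and 0.16. WARS and VARS, which led the knockouts, were not called here, WARS at -0.10 and -0.13 and VARS at 0.05 and 0.06.

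**Figure D3:**
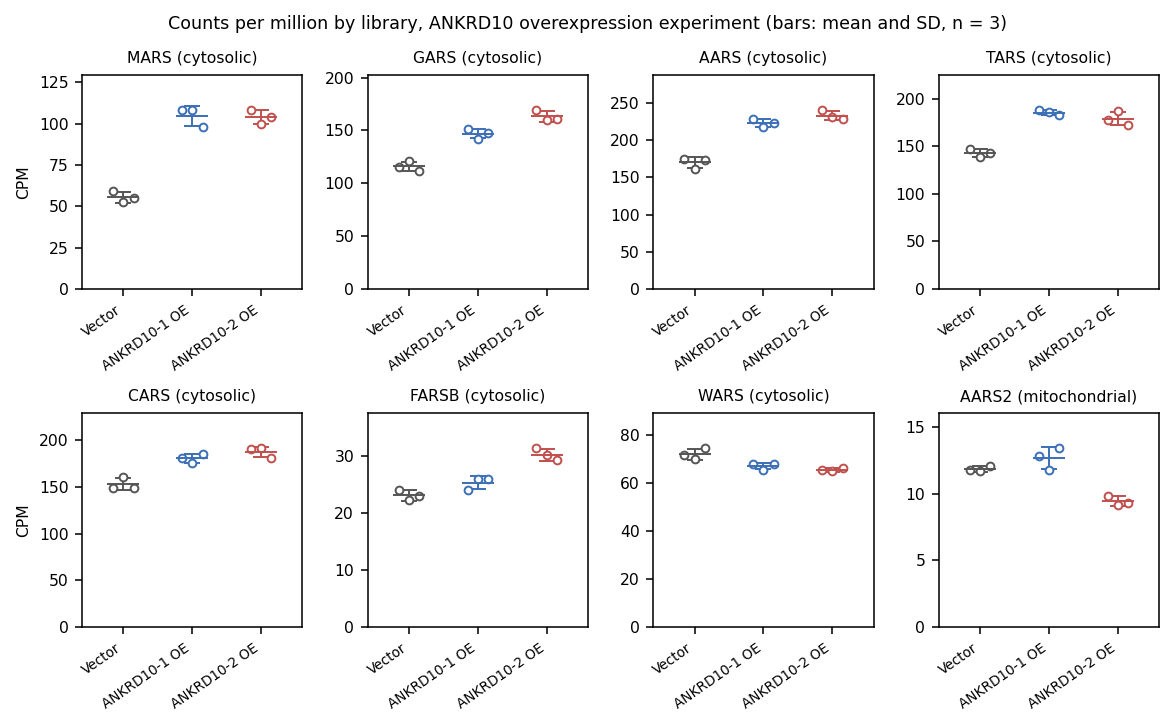
CPM (linear axis from 0) of 8 members in the 9 libraries of the overexpression experiment; circles are libraries, horizontal bars the mean and error bars the SD of 3. MARS is 1.88-fold higher in both overexpressing groups, GARS, AARS, TARS and CARS are higher by smaller steps, FARSB is highest in ANKRD10-2 OE, WARS is not called and AARS2 is lowest in ANKRD10-2 OE.

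Few mitochondrial enzymes were called. AARS2, the mitochondrial alanyl enzyme, fell by 0.33 on the log2 scale (SE 0.08, adjusted p = 0.0129) in ANKRD10-2 OE, from 11.8, 11.7 and 12.1 CPM to 9.85, 9.14 and 9.29. Its whole span of 13673 bases overlaps AL353588.1, a gene on the opposite strand, whose part in the AARS2 value was not tested. IARS2 passed narrowly at 0.15 (SE 0.05, adjusted p = 0.0497) and lost its call in 6 of 11 alternatives. Direct comparison of the isoforms called 2 members, against 4.15% higher and 3.1% lower over all genes: FARSB was higher in ANKRD10-2 OE (0.26, SE 0.07) and AARS2 lower (fell by 0.42, SE 0.09), and without ANKRD10-1 OE replicate 1 or 2 the FARSB call was lost. MARS was at 0.00 (SE 0.06) between the isoforms. Of the 9 epithelial markers 4 rose in ANKRD10-1 OE and 6 in ANKRD10-2 OE, their sums being 2894 to 3063 CPM in Vector, 3230 to 3309 in ANKRD10-1 OE and 3307 to 3715 in ANKRD10-2 OE, and their part in the member values was not tested.

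About as many genes of the amino acid response rose in the same libraries as were not called. Of 30 such genes, a list chosen with the results of these data known, 14 rose and 0 fell by edgeR in ANKRD10-1 OE (median 0.19; 1 lower at an unadjusted p under 0.05) and 17 rose and 0 fell in ANKRD10-2 OE (median 0.35; 0 lower at an unadjusted p under 0.05), while 16 and 13 were not called. Among genes with at least 20 CPM 8.39% and 22.7% rose in these comparisons, and the median over all genes tested was 0 and -0.01. ATF4 rose by 0.33 and 0.27 (SE 0.04 and 0.06), and beside DDIT3 the list was led by ATF3, a transcription factor of the same response, at 0.99 and 1.37, SESN2, a leucine sensor, at 0.85 and 0.76, and SLC7A11, the cystine transporter, at 0.82 and 0.75. Among the cytosolic members with TGATGNAA in the promoter 4 of 6 rose in ANKRD10-1 OE (median 0.31) and 5 of 6 in ANKRD10-2 OE (median 0.32), and among the 10 without it 4 and 6 rose (medians 0.14 and 0.20), with NARS, which carries the letters, at -0.03 and 0.07. In KO1 the medians of the same sets were 0.28 and 0.36 and in KO2 0.08 and 0.30. AIMP2, the scaffold of the complex, rose in both overexpressing groups (0.38, SE 0.09, and 0.34, SE 0.10) and in both knockouts (0.65, SE 0.08, and 0.53, SE 0.10), while AIMP1 was called only in ANKRD10-2 OE among these 4 comparisons, at 0.16.

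In the knockouts the same list was mixed: 11 rose and 7 fell in KO1, and 13 rose and 5 fell in KO2. It was led in KO1 by STC2, a secreted glycoprotein (1.45), CTH, a cysteine-producing enzyme (1.34), ALDH1L2, a mitochondrial folate enzyme (-1.30), and NUPR1, a stress-induced nuclear protein (-1.17). In KO2 it was led by ALDH1L2 (-2.15), SLC7A5, the large neutral amino acid transporter (1.03), SLC7A11 (0.97) and STC2 (0.88). DDIT3 was not called in either knockout (-0.06 and 0.38). ATF4 rose in KO1 (0.34, SE 0.05) and was not called in KO2 (0.06, SE 0.05). The shares among genes with at least 20 CPM, against which these and the following counts are to be read, were 29.1% higher in KO1 and 32.3% in KO2. Of 20 genes for tRNA maturation and export, 12 rose and 1 fell in KO1 and 8 rose in KO2, and XPOT, the exporter of tRNA from the nucleus, rose by 0.45 and 0.23. Of 14 RNA polymerase III genes, which serve tRNA transcription, 4 rose in KO1, a share near that of abundant genes, and 7 in KO2, led in both by POLR3G at 0.65. Of 7 scaffold and helper genes 4 rose in KO1, 3 in KO2, 2 in ANKRD10-1 OE and 4 in ANKRD10-2 OE. The shares for the overexpressing groups were 8.39% and 22.7% higher among genes with at least 20 CPM. A list of 7 is small to set against such shares. AARSD1, an alanyl-tRNA editing protein, rose by 0.58, 0.43, 0.24 and 0.21 in these 4 comparisons. Of 4 genes for the amidotransferase and the formyltransferase GATB rose in KO1 (0.55, SE 0.09) and GATC fell by 0.12 in KO2, and of the 2 selenocysteine genes SEPSECS fell by 0.44 in KO2. The 9 epithelial markers summed to 4088 to 4146 CPM in WT1 and 4079 to 4319 in KO1, and to 3964 to 4189 CPM in WT2 and 3849 to 4028 in KO2. Within these sums 3 markers rose and 2 fell in KO1, GATA3 from a mean of 55.9 to 21.9 CPM and TP63 from 241 to 164 CPM, and 3 rose and 3 fell in KO2, with GATA3 going from 54 to 32.1 CPM; their part in the member values was not tested. Of the 8 markers of other cell types, 4 were tested in the knockouts: PECAM1 rose in both and CD68 in KO2, at group means of at most 1.65 CPM, and COL1A1 fell by 0.53 in KO1. MYC rose by 0.42 (SE 0.05) in KO1, 0.17 (SE 0.05) in KO2 and 0.55 (SE 0.06) in ANKRD10-2 OE, and was at 0.16 (adjusted p = 0.0914) in ANKRD10-1 OE.

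Knockdown of ANKRD10-1 left the synthetases near their control values. Of the members 1 cytosolic and 2 mitochondrial rose and 0 fell by edgeR as fitted here or DESeq2 (2 cytosolic and 1 mitochondrial lower at an unadjusted p under 0.05; medians 0 and 0.02), against 5.08% higher and 5.52% lower over all genes tested. With the replicate block, with no low-count filter or without siANKRD10-1 replicate 2, 1 mitochondrial member was called lower. KARS gave 118, 126 and 125 CPM in siNC and 140, 136 and 141 in siANKRD10-1 (log2 fold change 0.18, SE 0.05, adjusted p = 0.0454). HARS2, the mitochondrial histidyl enzyme, moved from a mean of 28.3 to 33.7 CPM (0.25, SE 0.07), and PARS2 from 1.20 to 2.02 CPM (0.76, SE 0.23), a level of few counts. Without siNC replicate 1 or siNC replicate 2 the count of members called was 0 by edgeR, and without siANKRD10-1 replicate 1 or 3 a single member was.

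Knockdown of ANKRD10-2 moved members in both directions. Of the cytosolic members 3 rose and 7 fell (median -0.08), and 0 mitochondrial members rose by edgeR or DESeq2 (0 also at an unadjusted p under 0.05) and 4 fell (median -0.03), against 17.6% higher and 18.7% lower over all genes tested and 26.3% and 29.3% among genes with at least 20 CPM. The cytosolic counts lie near the background of abundant genes. The 4 falls among 16 mitochondrial members lie between the share of all genes and that of abundant genes. The summed level of the cytosolic members was 2440, 2520 and 2543 CPM in siNC and 2478, 2499 and 2513 CPM in siANKRD10-2, and that of the mitochondrial members 394, 404 and 408 CPM and 333, 340 and 348 CPM. Much of the difference in the mitochondrial sum lies in IARS2, at a mean of 137 CPM in siNC and 94.7 in siANKRD10-2. Of the 16 mitochondrial members 12 were not called.

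IARS fell most among the cytosolic enzymes, from 89.7, 83.4 and 85.4 CPM in siNC to 66.1, 59.1 and 64.5 in siANKRD10-2 (log2 scale, fell by 0.45, SE 0.06, adjusted p = 9.4e-07). WARS fell from 74.9, 78.8 and 81.3 CPM to 57.9, 64.1 and 63.1 (by 0.34, SE 0.06), and FARSA, the alpha subunit of the phenylalanyl enzyme, from a mean of 47.0 to 38.1 CPM. MARS and DARS, the aspartyl enzyme, fell by 0.27 and 0.25, and the other 2 called lower (KARS and TARS) stood at -0.20 and -0.14. NARS, the asparaginyl enzyme, rose instead, from 213, 240 and 209 CPM to 294, 297 and 316 (1.37-fold, log2 fold change 0.45, SE 0.06), CARS from 112, 122 and 130 CPM to 153, 150 and 148 (0.31, SE 0.06), and SARS from 366, 380 and 377 CPM to 416, 429 and 419 (0.17, SE 0.05). No library of these genes overlapped between siNC and siANKRD10-2. Within the complex 0 of 8 members rose by edgeR (0 also at an unadjusted p under 0.05) and 4 fell (IARS, MARS, DARS and KARS), and among the 12 free enzymes 3 rose and 3 fell. In this comparison 26.3% of genes with at least 20 CPM rose and 29.3% fell. Sets of 8 and 12 genes are too small to set apart from these shares.

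**Figure D4:**
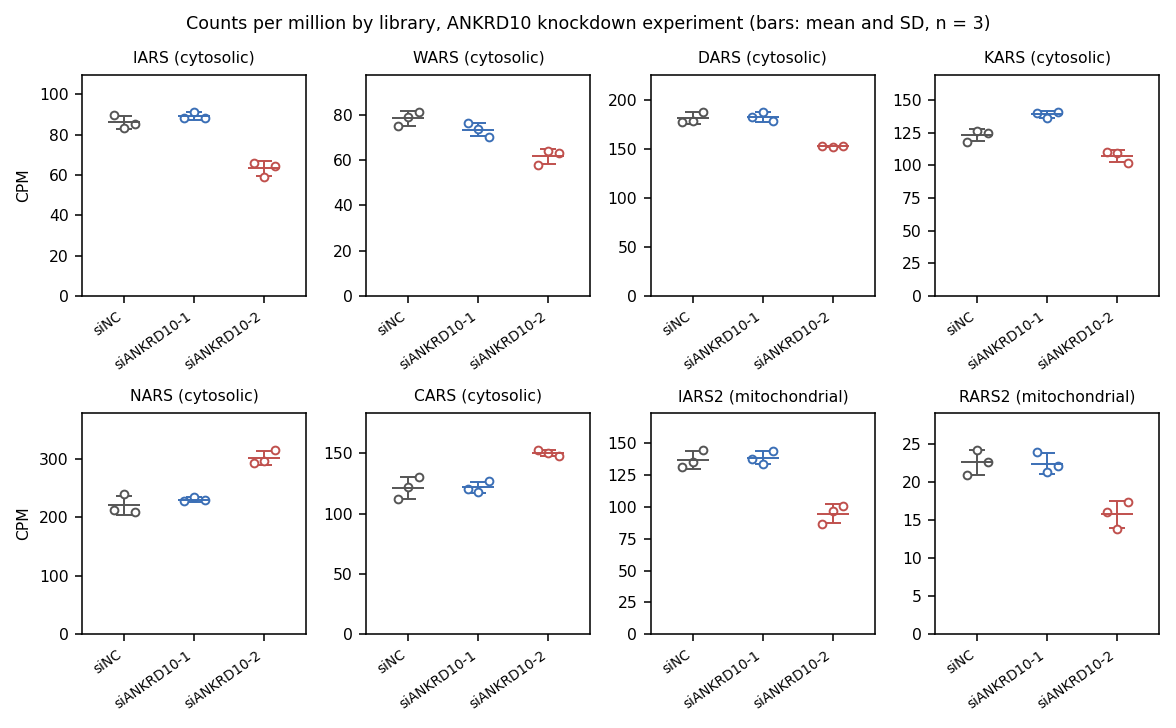
CPM (linear axis from 0) of 8 members in the 9 libraries of the knockdown experiment; circles are libraries, horizontal bars the mean and error bars the SD of 3. IARS, WARS, DARS, KARS, IARS2 and RARS2 are lower in siANKRD10-2 than in siNC, NARS and CARS are higher, and the siANKRD10-1 libraries lie near siNC except for KARS.

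IARS2 and RARS2, the mitochondrial isoleucyl and arginyl enzymes, fell furthest. IARS2 went from 131, 135 and 145 CPM to 86.3, 97.0 and 101 (fell by 0.53 on the log2 scale, SE 0.06, adjusted p = 1.05e-07), and RARS2 from 21.0, 24.3 and 22.7 CPM to 16.1, 13.8 and 17.4 (by 0.52, SE 0.09). CARS2 fell from a mean of 46.5 to 37.9 CPM (by 0.30, SE 0.06) and NARS2 by 0.23. Measured directly against siANKRD10-1, 18 members were called: 4 cytosolic rose and 8 fell, and 1 mitochondrial rose and 5 fell, against 18.2% and 18.8% over all genes. IARS2, RARS2 and IARS were lower there by 0.54, 0.50 and 0.49, and NARS higher by 0.40.

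Other features moved with siANKRD10-2 as well. Of 9 epithelial markers 7 fell (median -0.66), their summed level being 5423 to 5742 CPM in siNC, 4524 to 4864 in siANKRD10-1 and 3377 to 3493 in siANKRD10-2, and MYC fell by 0.60 (SE 0.06). In bulk libraries fewer cells of a type and less RNA per cell cannot be told apart, and their part in the member values was not tested. The 8 markers of other cell types summed to 43.0 to 43.5 CPM in siNC and 42.6 to 44.9 CPM in siANKRD10-2, but of the 5 tested COL1A1 rose by 0.22 (27.6 to 32.1 CPM) and CD68 and PECAM1, markers of macrophages and endothelium, fell by 0.46 and 0.93 (12.9 to 9.41 and 1.52 to 0.793 CPM). Of the amino acid response genes 7 rose and 6 fell, with VLDLR at -1.93 (SE 0.65), DDIT4 at -0.91, PYCR1 at 0.62 and SLC3A2 at -0.49, and DDIT3 at -0.10 was not called. Of 4 genes for the amidotransferase and the formyltransferase 2 fell and 2 were not called. QRSL1 and GATB, subunits of the amidotransferase that makes mitochondrial glutaminyl-tRNA, fell by 0.42 and 0.28. Of 20 genes for tRNA maturation and export 2 rose, 5 fell and 13 were not called (median -0.03). RPP40 and RPP30, protein subunits of RNase P, were among those that fell, by 0.69 and 0.51. Among genes with at least 20 CPM 26.3% rose and 29.3% fell, so these counts do not stand out for the tRNA genes.

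Gain and loss of ANKRD10-2 were set side by side, as they rest on separate control groups. Of the 12 cytosolic members that rose with overexpression 4 fell with knockdown (IARS, KARS, MARS and TARS), which is 4 of the 7 that fell, and CARS and SARS rose in both, 2 of the 3 that rose with knockdown. Among genes with at least 20 CPM in both experiments 28.8% fell with knockdown, and 37.7% of those that rose with overexpression did. The share of 4 of 12 thus lies near the background. For a rise with knockdown these shares were 27.4% and 20.9%, so 2 of 12 does not exceed the background either. IARS2 fell with knockdown, and its rise with overexpression was the marginal call given above, lost in 6 of 11 alternatives. For the RBPMS knockouts beside ANKRD10-2 OE, the 12 members that rose in ANKRD10-2 OE all rose in KO1 (12 of 18 there) and 9 of them rose in KO2 (9 of 14). With 18 and 14 of 20 cytosolic members higher in the knockouts most of any 12 are shared, and over all genes tested in both experiments 40.5% of those higher in ANKRD10-2 OE were higher in KO1 and 44.5% in KO2. Among genes with at least 20 CPM in both experiments these shares were 46.3% and 50%. ANKRD10 itself rose in ANKRD10-2 OE and fell in both knockouts. The exceptions in KO2 were IARS, which fell, and AARS and CARS, which stood at -0.01 and 0.09.

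**Figure D5:**
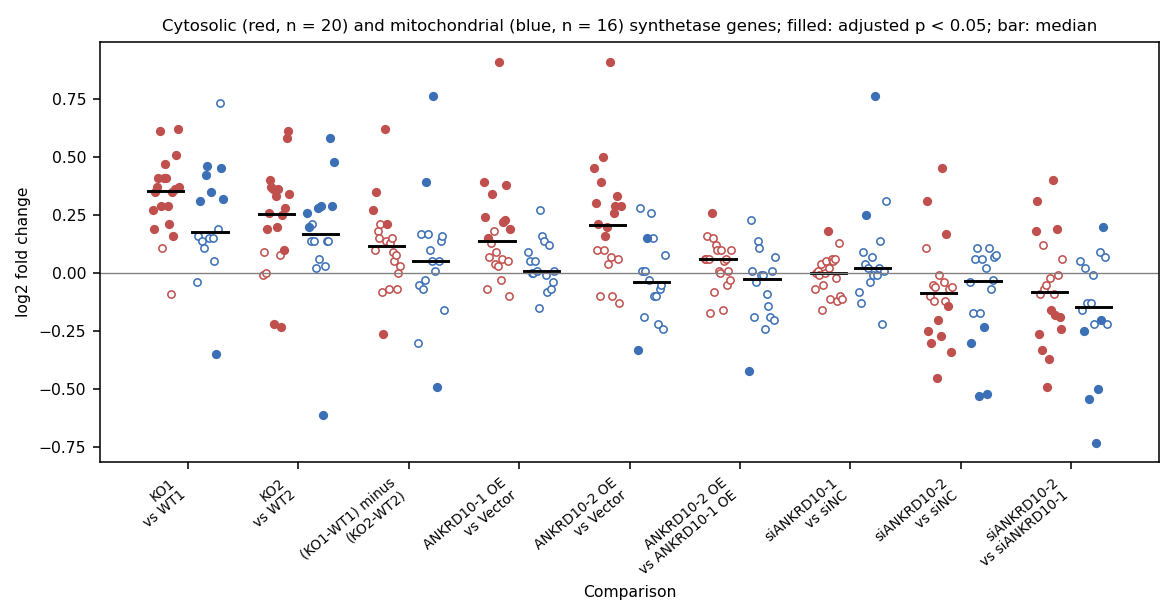
Log2 fold change (linear axis) of the 20 cytosolic members in red and the 16 mitochondrial members in blue for each comparison; each circle is a gene, filled circles have adjusted p under 0.05 and black bars are medians. The cytosolic median lies above the mitochondrial one in both knockouts (0.35 against 0.17, 0.26 against 0.17) and both overexpression groups (0.14 against 0.01, 0.20 against -0.04), below it in siANKRD10-2 against siNC (-0.08 against -0.03) and above it in siANKRD10-2 against siANKRD10-1 (-0.08 against -0.15).

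The cytosolic and mitochondrial medians were both above 0 in the knockouts, whereas in the overexpression experiment the cytosolic median was above 0 and the mitochondrial one near it. In siANKRD10-2 the order of the medians depended on the control, as the plot of the sets shows, and without siNC replicate 2 they stood at -0.10 and -0.09 against siNC. The sets also differed in precision: the median SE was 0.05 for cytosolic and 0.08 for mitochondrial members in KO1, 0.05 and 0.09 in ANKRD10-1 OE, and 0.05 and 0.10 in ANKRD10-2 OE, so that a difference called for a cytosolic gene could miss the threshold for a mitochondrial one. Genes within a set share libraries and are not replicates, and no p-value was attached to the difference between the sets.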

How the data were processed

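Poly(A)-selected RNA-seq libraries of 5637 cells (30 libraries in 10 groups of 3) were analysed from 3 count tables. Per the labels and the study's methods, the authors trimmed reads (Trimmomatic 0.36), aligned them to GRCh38 and counted them per gene (featureCounts of Subread 1.5.1), and deposited raw counts; HISAT2 is named as the aligner. The annotation release and the strand setting of the counting are not given in the sources used here. Groups and replicate numbers came from the sample titles.

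Counts were filtered (filterByExpr, minimum count 10, minimum total 15), scaled by TMM and tested with edgeR 4.0.16 (quasi-likelihood F-test, R 4.3.3) over all genes, with only the compared groups in each fit; calls are Benjamini-Hochberg adjusted p under 0.05, and fold changes use a prior count of 0.125. With 3 against 3 an exact permutation test cannot go below p = 0.1. The difference between knockouts was fitted as (KO1 − WT1) − (KO2 − WT2). CPM values use TMM library sizes within a table, and values were not compared between tables. TPM was computed from the summed exon lengths in the overexpression and knockdown tables. Positions and overlaps came from GENCODE 29 (GRCh38), in which 33 of 36 members had the same start and end as in the overexpression table. In it 22 members overlap a gene on the opposite strand, among them WARS, which overlaps AL157871.4 by 20272 bases. The part of such reads in the member values was not tested.

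Replicates differed beyond sampling noise in all 30 within-group pairs (chi-square per degree of freedom 4.19 to 19.9). Same-numbered replicates deviated together weakly at most (correlations from -0.08 to 0.17, not all 3 over 0.1 in any comparison), so no block was used. In 2 comparisons each replicate nevertheless correlated best with its own number. These were KO2 against WT2 (0.06 to 0.08) and ANKRD10-2 OE against Vector (0.06 to 0.16). Counts with a replicate block are given in the closing section. The tests were also run on simulated counts with the same spread between libraries for every gene. Real genes differ in this spread, so that run does not gauge the calls given here.

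Members named with values are, per comparison, called members ranked by size of log2 fold change: up to 5 cytosolic and 3 mitochondrial per direction. Other values are given as counts, ranges or values without a verb. Further lists were scaffold and helper proteins, amidotransferase and formyltransferase, the selenocysteine route, tRNA maturation and export, RNA polymerase III, the amino acid response, epithelial markers and markers of other cell types, with up to 4 genes named from each per comparison by the same ranking. ATF4, AIMP1, AARSD1, XPOT and DDIT3 are named besides for their roles, and the markers and further genes singled out were chosen after their values were seen. The members and lists were chosen with earlier results of these data known. Alternatives were DESeq2 1.42.0, RLE scaling, no low-count filter, a replicate block, all groups in a fit, both WT groups as control, and leaving out each library.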

Additional observations from a re-analysis of the deposited data

Results flagged for a closer look

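For 8 of the 36 members the change in KO1 against WT1 differed from that in KO2 against WT2 by the interaction test of edgeR (adjusted p under 0.05, log2 scale, KO1 effect minus KO2 effect), against 23.3% of all genes tested, so the number of members is near the background. Higher in KO1 relative to KO2 were IARS at 0.62 (SE 0.05), IARS2 at 0.39 (SE 0.05), DARS at 0.35 (SE 0.08), AARS at 0.27 (SE 0.05), LARS at 0.21 (SE 0.06) and PARS2 at 0.76 (SE 0.22). Lower were HARS at -0.26 (SE 0.08) and SARS2 at -0.49 (SE 0.12). For IARS and SARS2 the medians of their chromosomes differed in the same direction, at 0.42 over 769 genes of chromosome 9 and -0.39 over 1292 genes of chromosome 19. HARS lost its call in 9 of 16 alternatives, LARS in 8 and PARS2 in 5, and the other 5 kept theirs in all 16.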

How the results depend on the processing

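Of 69 pairs of a named member and a comparison, 55 kept their call under all alternatives run, and 0 of 819 values reversed. The counts of members called stayed within 1.5 times the main count in 7 comparisons under all alternatives. ANKRD10-2 OE against ANKRD10-1 OE gave 2 members in the main test, 4 with DESeq2, and 1 to 3 when a library was left out, with 1 without ANKRD10-1 OE replicate 1 or 2. siANKRD10-1 against siNC gave 3 members, and 0 to 3 when a library was left out, with 0 without siNC replicate 1 or 2 and 1 without siANKRD10-1 replicate 1 or 3. The cause was not tested. Leaving out a library gave 22 to 26 members in KO1 (main 25), 21 to 24 in KO2 (24), 6 to 9 for their difference (8), 6 to 8 in ANKRD10-1 OE (9), 11 to 14 in ANKRD10-2 OE (14), 11 to 15 in siANKRD10-2 against siNC (14) and 12 to 18 against siANKRD10-1 (18). The count over all genes moved by over 1.5 times only when a library was left out: from 1291 to between 700 and 831 in ANKRD10-1 OE (without Vector replicate 1 or 2 or ANKRD10-1 OE replicate 1 or 2), from 4017 to 2617 in ANKRD10-2 OE (without Vector replicate 1 or 2), from 1455 to between 694 and 953 between the isoforms (without any ANKRD10-1 OE replicate or ANKRD10-2 OE replicate 3), and from 1991 to between 949 and 1303 in siANKRD10-1 (without siNC replicate 1 or 2 or siANKRD10-1 replicate 1 or 3). With the replicate block 26 members were called in KO1, 24 in KO2, 9 for their difference, 8 in ANKRD10-1 OE, 15 in ANKRD10-2 OE, 3 between the isoforms, 4 in siANKRD10-1, 14 in siANKRD10-2 and 14 between the siRNAs. All 69 named pairs kept their call under the block. With both WT groups as control 19 cytosolic members rose and 1 fell in KO1, and 14 rose and 2 fell in KO2. Few counts limited PARS2, MARS2 and FARS2, whose SE reached 0.28, 0.26 and 0.23.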
